A study of Mus musculus with 8 samples.

Results

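Interferon response genes were followed in the liver of mice without Snd1, an RNA-binding protein built of nuclease-like folds and a Tudor domain. The 43 genes were taken by name, with earlier results of these data known, and belong to these classes: transcription factors of the IRF and STAT families, sensors of foreign nucleic acid, antiviral effectors and the interferon-inducible GTPases. Of the 43 genes 41 had a probe on the array and 33 were measured, out of 8134 genes tested in all. Each array held total RNA of the left liver lobe of 1 male C57BL/6N mouse, aged 8 to 12 weeks, not fasted and sampled near noon. The 4 wild type (WT) mice were compared with 4 Snd1 knockout (KO) mice, in which the first exon of Snd1 was deleted through the germline. Per the study's methods, that deletion came from a loxP-flanked allele made in 129/Sv embryonic stem cells and crossed with CAG-Cre mice, whose Cre is active broadly, so it is not limited to hepatocytes or to any other cell type of the liver. The germline-deleted mice were then backcrossed to C57BL/6N for several generations, and littermates from heterozygous pairs were used. No mouse was treated, so the levels are those of a liver at rest. Because the RNA was of whole tissue, fewer cells of a type and less RNA per cell cannot be told apart.

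Type I interferons are secreted when a cell senses viral RNA or DNA. Type I interferons act through a receptor with the kinases Jak1 and Tyk2, which activate a complex of STAT proteins with Irf9, and this complex binds the interferon-stimulated response element. Type II interferon (interferon gamma) acts through another receptor, and promoters that answer to it often carry the gamma-activated site. In the liver, hepatocytes, Kupffer cells and endothelial cells all answer to interferons, and a low tonic level of these transcripts is present without infection.

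The arrays of the series varied in brightness and spread. Mean intensity was 262 to 283 on the 4 WT arrays, 290 and 281 on KO 2 and KO 3, and 215 and 223 on KO 1 and KO 4, the dimmest arrays. Along the first principal component, which held 44.5% of the variance, the WT arrays lay between -14.9 and -10.6 and the KO arrays were spread out, at -7.40 (KO 1), 6.79 (KO 2), 21.2 (KO 3) and 32.4 (KO 4). Snd1 itself, the targeted gene, had a log2 intensity of 6.77 to 6.88 on the WT arrays and was not detected on any KO array (4.15 to 4.24). The place of the Snd1 probe relative to the deleted exon was not checked here. Of the 8134 genes, 207 were called at an adjusted p under 0.05 (limma, Benjamini-Hochberg over all genes), 96 higher and 111 lower in KO, so that 46.4% of calls were higher. Under median scaling, used instead of quantile normalization, 97 genes were called and 14.4% of these calls were higher.

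Many of the genes shared sequence features close to their transcription start. Promoters of 300 bases, 250 before and 50 after the start, were found in RefSeq (mouse assembly GRCm38.p6) for 31 of the 43 genes. Both motifs were searched on both strands. The core of the interferon-stimulated response element, spelled GAAA, any 2 bases, GAAA, was in the promoters of 19 of these 31 genes (61.3%), and in those of 3.99% of the 27025 genes of the table. The gamma-activated site, spelled TTC, any 3 bases, GAA, was in 12 of the 31 (38.7%) against 9.55% of all genes. Both motifs were in 8 genes and neither in 8. Among the GTPases of the IRG and GBP families 7 of 8 promoters held the response element and 4 of 8 the gamma-activated site. A match is a run of letters and not a site of measured binding. A promoter without a match may still hold a variant of either element, or hold one outside these 300 bases. Dhx58, Ly6e and Ifi27l2a, also lower in KO, are not among the 31 genes with a promoter. The first of 2 sets printed here is the pair of genes that were lower in KO and have a promoter in the table, Ifi47 and Irf7, whose whole 300-base promoters held no match of either motif. Shown are the 100 bases before the start, 5′ to 3′ on the strand of the gene.

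Ifi47 (chr11:49076487-49076586, plus strand): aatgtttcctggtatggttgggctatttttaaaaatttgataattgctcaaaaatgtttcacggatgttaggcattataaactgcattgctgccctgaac
Irf7 (chr7:141266425-141266524, minus strand): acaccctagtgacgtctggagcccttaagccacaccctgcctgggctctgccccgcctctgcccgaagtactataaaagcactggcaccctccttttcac

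The second set is of genes with matches, in capitals: Isg15, Bst2 and the GTPases Irgm1, Gbp2, Igtp and Irgm2. All 100 bases of each lie before the start.

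Isg15 (chr4:156200836-156200935, minus strand): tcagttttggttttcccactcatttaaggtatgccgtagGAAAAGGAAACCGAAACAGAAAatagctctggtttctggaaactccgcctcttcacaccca
Bst2 (chr8:71537548-71537647, minus strand): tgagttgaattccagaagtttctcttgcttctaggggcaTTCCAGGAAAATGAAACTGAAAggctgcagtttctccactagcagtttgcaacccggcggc
Irgm1 (chr11:48871421-48871520, minus strand): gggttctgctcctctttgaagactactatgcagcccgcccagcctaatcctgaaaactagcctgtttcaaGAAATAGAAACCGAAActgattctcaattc
Gbp2 (chr3:142620559-142620658, plus strand): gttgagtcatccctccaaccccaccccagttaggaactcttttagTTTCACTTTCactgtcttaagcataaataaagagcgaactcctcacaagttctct
Igtp (chr11:58199456-58199555, plus strand): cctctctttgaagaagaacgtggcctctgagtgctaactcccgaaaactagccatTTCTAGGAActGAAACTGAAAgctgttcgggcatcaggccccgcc
Irgm2 (chr11:58214862-58214961, plus strand): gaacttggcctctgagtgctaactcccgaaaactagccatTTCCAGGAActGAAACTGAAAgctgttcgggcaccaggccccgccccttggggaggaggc

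Isg15 carried 3 overlapping matches of the response element in 1 run of capitals, the first base of each at positions -78, -72 and -66 from the start. Bst2 carried 2 overlapping matches, at -130 and -124, and a gamma-activated site at -136 that overlapped the first of them. The capitals of Gbp2 read on the opposite strand. In Igtp and Irgm2, which are neighbours on chromosome 11 with 0 protein-coding genes between them, the capitals are a gamma-activated site followed by the response element. Aligned without gaps on that site, 97 of 100 bases of these 2 promoters were identical. Irgm1, Tgtp1 and Ifi47 lie in another group on the same chromosome, with 4 protein-coding genes between Irgm1 and Tgtp1 and 2 between Tgtp1 and Ifi47.

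**Figure D1:**
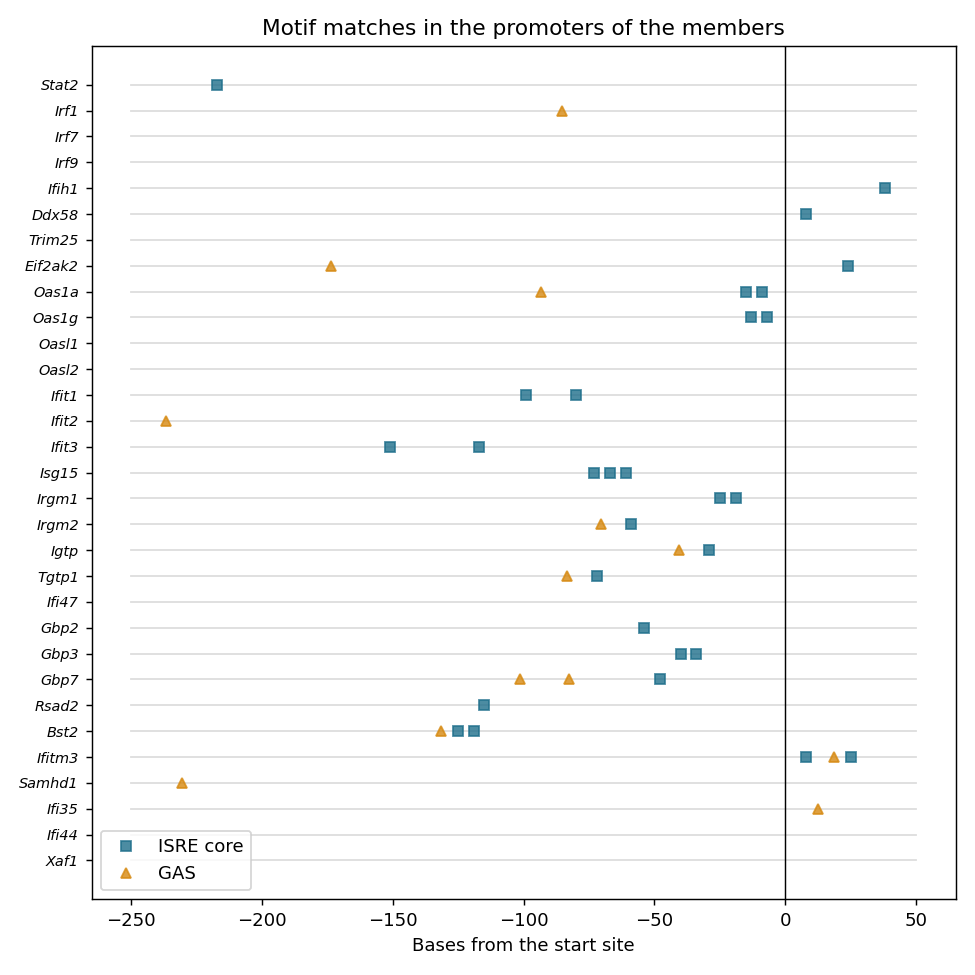
Motif matches in the 31 promoters found for the interferon genes, by distance from the transcription start in bases (x axis), 1 gene per line. Squares are the core of the interferon-stimulated response element and triangles the gamma-activated site, and lines without a symbol are the 8 genes with neither.

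In the KO livers 5 of the 33 measured genes were lower and 0 were higher at an adjusted p under 0.05: Ifi27l2a, Ly6e, Ifi47, Irf7 and Dhx58. This is 15.2% of the measured genes, where 2.54% of all genes tested were called, 1.36% lower and 1.18% higher. Since the genes were chosen with earlier results known, the shares are given as a description. The 5 genes have different roles. Irf7 is a transcription factor of type I interferon induction, Dhx58 a cytoplasmic RNA helicase, Ifi47 a GTPase of the IRG family, Ly6e a membrane-anchored surface protein and Ifi27l2a a small hydrophobic protein. At an unadjusted p under 0.05 there were 12 of 33, 10 lower and 2 higher (36.4%, all genes 17.4%). The values of the 4 WT and 4 KO arrays did not overlap in 9 genes (27.3%, all genes 10.8%), 8 of them lower in KO (24.2%, all genes 5.38%) and 1 higher (3.03%, all genes 5.37%). Log2 fold changes, given as KO minus WT, were below 0 in 21 of 33 (63.6%, all genes 50.3%), and their median was -0.12 against -0.001 over all genes. All 33 probes were detected on all 8 arrays, so none of these genes passed the detection filter through 1 group alone. Irf7 and Ifi27l2a were dim in KO, at uncorrected intensities of 99.1 to 115.8 and 98.7 to 175.1. The median of the authors' processed values was 92.8 to 92.9 per array. The fold changes of both genes were smaller without background correction, as given below.

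**Figure D2:**
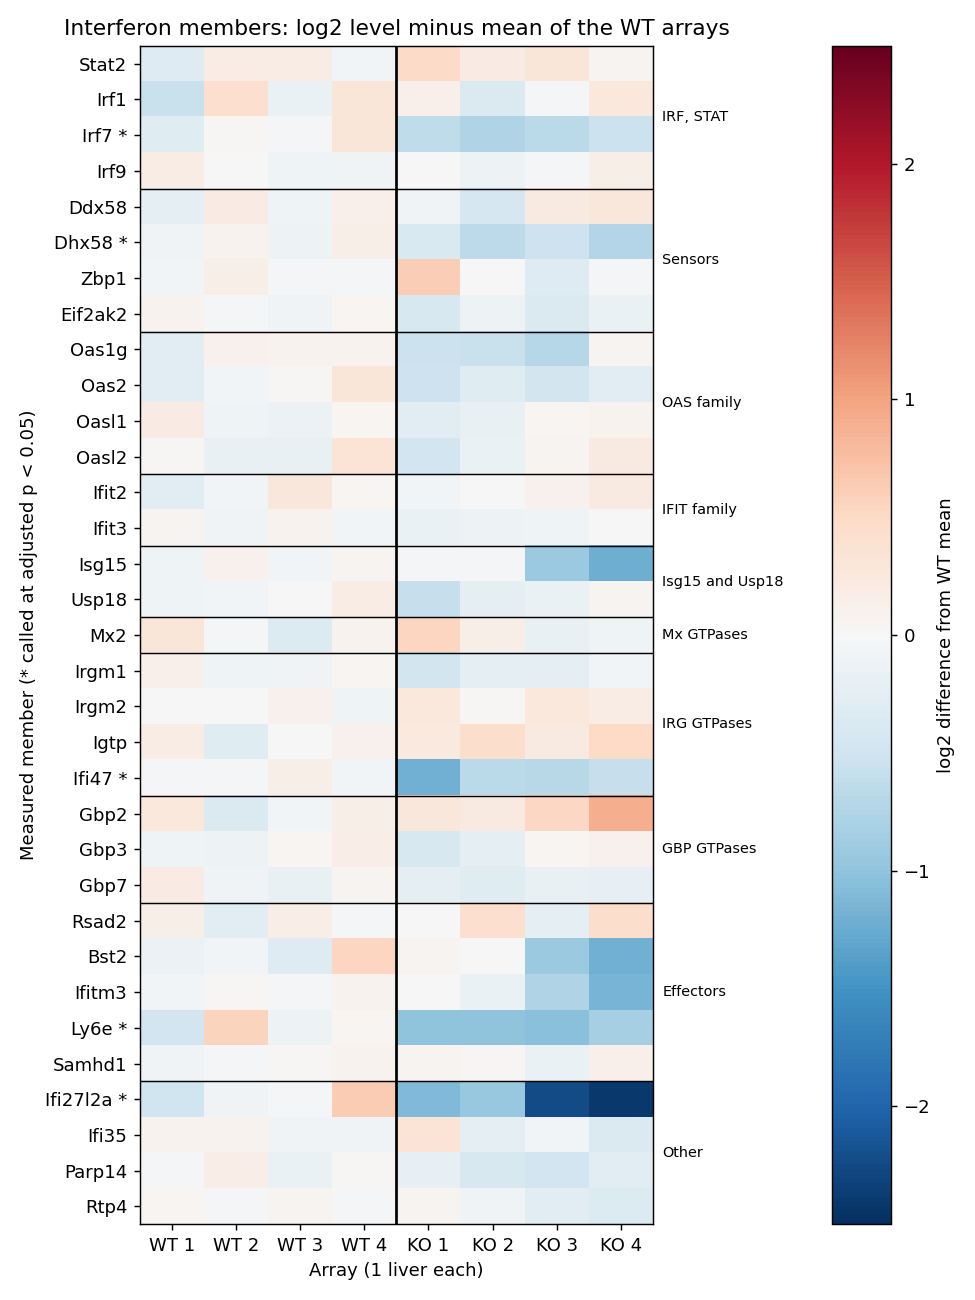
Log2 intensity of the 33 measured interferon genes (rows, by role) on each array (columns, 1 liver each), as the difference from the mean of the 4 WT arrays. Blue is lower and red is higher, an asterisk marks the 5 genes called at an adjusted p under 0.05, and the darkest cells are those of Ifi27l2a on KO 3 and KO 4.

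The calls were sensitive to single arrays, and so were those over all genes. Without WT 2, WT 3, WT 4 or KO 3 the number of interferon genes called was 0, where 0.602%, 0.504%, 0.811% and 0.602% of all genes were called. Without KO 2 or KO 4 it was 2 (all genes 1.67% and 1.43%), and without WT 1 or KO 1 it stayed at 5 (2.47% and 6.41%). Without KO 1 and KO 4 together, the 2 dimmest arrays, 4 were called (all genes 3.61%), 3 of them among the 5. All 5 genes were lower in KO in each of the 18 alternatives run, while 12 of the 33 measured genes changed sign in at least 1 of them. Dhx58 is in a supplementary list of genes that the study found altered in KO liver both on the array and by RNA sequencing. In that list it was lower in KO by both methods. The arrays used here are the study's own, so no call here is independent of the study. The list as available here breaks off before names later in the alphabet, so the other called genes could not be looked up.

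**Figure D3:**
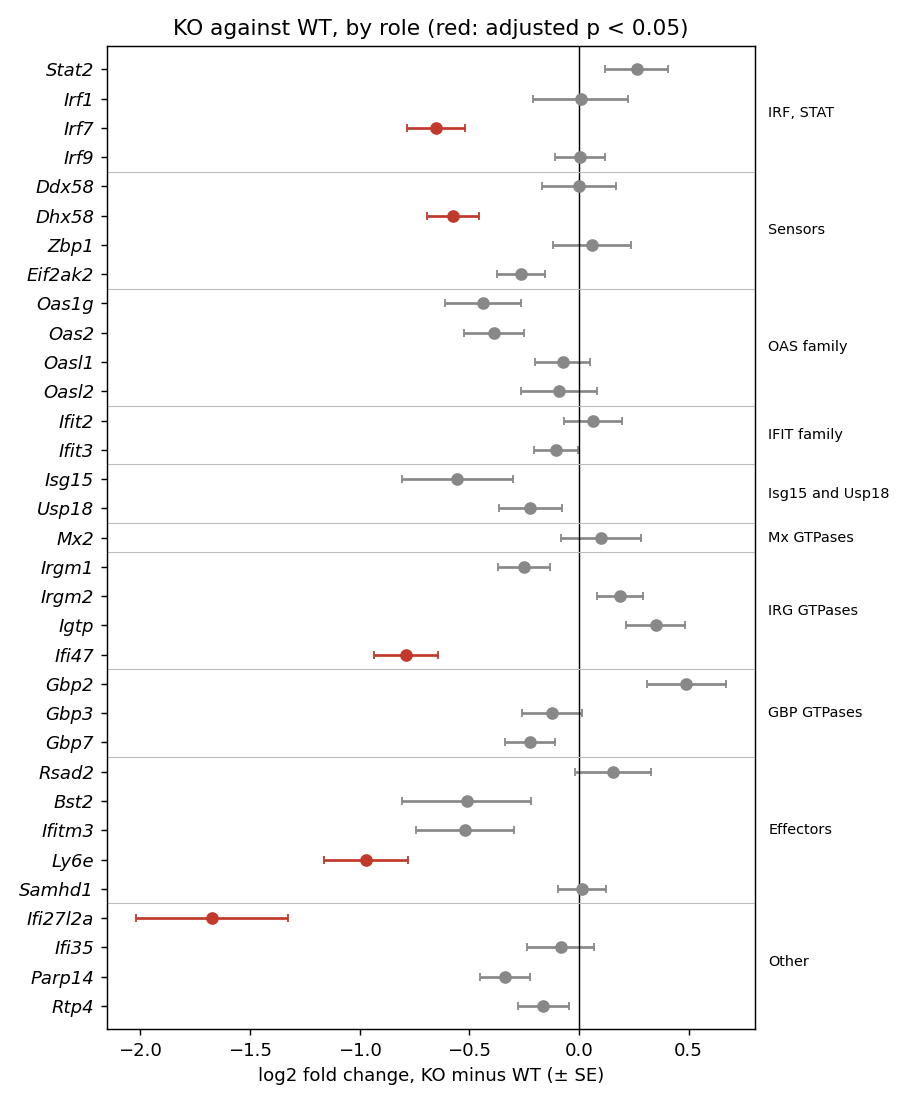
Log2 fold change (KO minus WT) ± standard error of each measured interferon gene, by role, from the limma fit on 4 WT and 4 KO arrays. Red points are the 5 called genes, from -1.67 (Ifi27l2a) to -0.57 (Dhx58), and grey points are the other 28, from -0.55 (Isg15) to 0.49 (Gbp2).

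Among the transcription factors, Irf7 had log2 intensities of 5.59, 5.92, 5.86 and 6.18 on WT 1 to WT 4 and of 5.24, 5.14, 5.21 and 5.34 on KO 1 to KO 4. All KO values lay below all WT values, and the KO arrays were closer to each other than the WT arrays. Irf7 was 1.57-fold lower in KO (log2 fold change -0.65 ± 0.13 SE, limma adjusted p = 0.0337). The call was lost without WT 2 (adjusted p = 0.106), WT 3 (0.104), WT 4 (0.0975), KO 2 (0.0724), KO 3 (0.11) or KO 4 (0.05, just past the threshold). It was also lost with median scaling (0.0896), no detection filter (0.0595), no background correction (0.0594) and the authors' processed values (0.0593), where the log2 fold change was -0.26 in the last 2, and it was kept in 7 of 18 alternatives. With an offset of 50 the log2 fold change was -0.38. Stat2, a subunit of the type I complex, was at 0.26 ± 0.14 (adjusted p = 0.38). Irf9, the DNA-binding subunit of that complex, was at 0.01 with a 95% interval of -0.24 to 0.26, and Irf1, a factor of the interferon gamma response, at 0.01 with an interval of -0.47 to 0.48. These 3 were not called, and Irf1 varied widely within WT (8.86 on WT 1, 9.82 on WT 2).

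Of the 4 measured sensors of nucleic acid 1 was called (all genes 2.54%). Dhx58 (also LGP2), a helicase of the RIG-I family that lacks the signalling domains of the others, was at 6.53, 6.71, 6.49 and 6.76 in WT and at 6.23, 5.97, 6.10 and 5.90 in KO. The groups did not overlap, and KO 1 was nearest to WT. It was 1.49-fold lower in KO (-0.57 ± 0.12, adjusted p = 0.0338), and the call was lost without WT 2 (0.117), WT 3 (0.0831), WT 4 (0.112), KO 2 (0.0724), KO 3 (0.0977) or KO 4 (0.0646) and with median scaling (0.113). It was kept in 10 of 18 alternatives, and the log2 fold change was -0.30 without background correction and in the authors' processed values. Ddx58 (RIG-I), the founding member of that family, had the same mean in both groups (5.38 ± 0.20 in WT and 5.38 ± 0.32 in KO, SD, n = 4) with a 95% interval of the difference of -0.37 to 0.38. Eif2ak2, the kinase PKR that stops translation on double-stranded RNA, was at 7.25, 7.12, 7.08 and 7.22 in WT and at 6.77, 7.04, 6.81 and 6.99 in KO. Its groups did not overlap, but with -0.26 ± 0.11 it was not called (adjusted p = 0.234). Zbp1, a sensor of Z-form nucleic acid, was at 0.06 ± 0.18, with KO 1 highest of all 8 arrays (6.18) and KO 3 lowest (5.25). Ifih1 (MDA5) was under the detection filter, with a signal on 1 WT array and 0 KO arrays, as was Trim25, a ubiquitin ligase of RIG-I, with 2 WT arrays and 0 KO arrays.

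None of the oligoadenylate synthetases, which make the activator of RNase L, or their relatives was called. In the limma fit 2 of 4 measured had an unadjusted p under 0.05 (all genes 17.4%). All 4 measured genes of the family had a log2 fold change below 0 (median -0.24), as did 50.3% of all genes. However, Oasl1 and Oasl2 turned to 0.05 and 0.04 with array weights, and Oasl2 also without KO 1 (0.03) and without WT 4 (0.02). Oas2 was at 5.22, 5.42, 5.53 and 5.80 in WT and at 4.97, 5.19, 5.03 and 5.22 in KO. The groups of Oas2 met without overlap, WT 1 lying just above KO 4 (-0.39 ± 0.14, adjusted p = 0.173). Oas1g was at 6.03, 6.41, 6.40 and 6.38 in WT and at 5.77, 5.74, 5.59 and 6.37 in KO. WT 1 was low for its group and KO 4 reached the WT level, and the difference was -0.44 ± 0.17 (adjusted p = 0.222). Another probe of Oas1g that passed the filter gave -0.43. Oasl1 and Oasl2, relatives with ubiquitin-like domains, were at -0.07 (95% interval -0.35 to 0.20) and -0.09 (-0.47 to 0.29). Oas1a was not detected on any array. Oas1 paralogs are close in sequence, so Oas1g is uncertain as a single gene.

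The IFIT proteins bind viral RNA. Ifit3 was at -0.10 ± 0.10 (adjusted p = 0.647), and its other 2 probes gave 0.22 and -0.03, so its sign rests on the probe taken. Ifit2 was at 0.06 ± 0.13, and Ifit1 was not detected on any array. Isg15, the ubiquitin-like modifier, was at 7.25, 7.47, 7.30 and 7.43 in WT and at 7.33, 7.34, 6.43 and 6.14 in KO. KO 1 and KO 2 lay within the WT range and KO 3 and KO 4 below it, which gave -0.55 ± 0.25 (adjusted p = 0.292) with an SD of 0.62 in KO against 0.11 in WT. Usp18, the protease that removes Isg15 from proteins and a brake on the type I receptor, was at -0.22 ± 0.14 (adjusted p = 0.46), and all 3 of its probes were below 0. The dynamin-like Mx GTPases gave no call: Mx2 was at 0.10 ± 0.18 (adjusted p = 0.831), and Mx1 had a signal on 1 array of each group. C57BL mice carry a defective Mx1 gene.

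The IRG GTPases, which act on the vacuoles of intracellular parasites and bacteria, had 1 call among 4 measured genes (all genes 2.54%). Ifi47 (Irg47) was at 7.01, 6.98, 7.18 and 6.97 in WT and at 5.83, 6.37, 6.34 and 6.45 in KO. The WT arrays lay within a narrow band and all KO arrays below it, KO 1 lowest. Ifi47 was 1.73-fold lower in KO (-0.79 ± 0.15, adjusted p = 0.0227), the lowest p of the 33 genes. Its call was lost without WT 2 (adjusted p = 0.0742), WT 3 (0.0881), WT 4 (0.068) or KO 3 (0.0706), and with median scaling (0.105) or no detection filter (0.0529), and was kept in 11 of 18 alternatives. Without background correction and in the authors' processed values the log2 fold change of Ifi47 was -0.45. Igtp (Irgm3) was at 7.87, 7.38, 7.70 and 7.80 in WT and at 7.93, 8.13, 7.91 and 8.19 in KO. Every KO value was above every WT value, the 1 such case among the 33 genes, with a difference of 0.35 ± 0.13 that was not called (adjusted p = 0.208). Its neighbour Irgm2 was at 8.92, 8.89, 9.003 and 8.79 in WT and at 9.16, 8.94, 9.17 and 9.09 in KO, where KO 2 fell among the WT arrays (0.19 ± 0.10, adjusted p = 0.384). Irgm1, a regulator of the other IRG proteins, was at 10.88, 10.65, 10.66 and 10.81 in WT and at 10.29, 10.53, 10.50 and 10.68 in KO. Only KO 4 reached the WT range for Irgm1, and the difference was -0.25 ± 0.12 (adjusted p = 0.305), with another probe at -0.08. Iigp1 (Irga6) had a signal on 1 WT array and 0 KO arrays and Tgtp1 on none. The signs of Ifi47, Igtp, Irgm2 and Irgm1 were the same in all 18 alternatives. Whether Ifi47 differs from Igtp in its response was not tested.

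The guanylate-binding proteins (GBP), larger GTPases that coat pathogen vacuoles, gave 0 calls among 3 measured genes. In the limma fit 1 had an unadjusted p under 0.05 (all genes 17.4%). Gbp2 was at 6.76, 6.14, 6.42 and 6.64 in WT and at 6.78, 6.72, 7.01 and 7.40 in KO. KO 2 lay within the WT range and KO 4 was highest, with a difference of 0.49 ± 0.18 (adjusted p = 0.192), the highest of the 33 fold changes. Gbp3 was at -0.12 (95% interval -0.43 to 0.18) and Gbp7 at -0.22 (-0.48 to 0.03). Gbp6 had no probe with that symbol in the annotation used here. Over the IRG and GBP families together 1 of 7 measured genes was lower and 0 were higher, with 4 below 0 and 3 above, while of the other 26 measured genes 4 were lower and 0 were higher, with 17 below 0 and 9 above. Over all genes 1.36% were lower, 1.18% were higher and 50.3% were below 0. Paralogs of both families are close in sequence, so values of single genes may include signal of a relative.

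**Figure D4:**
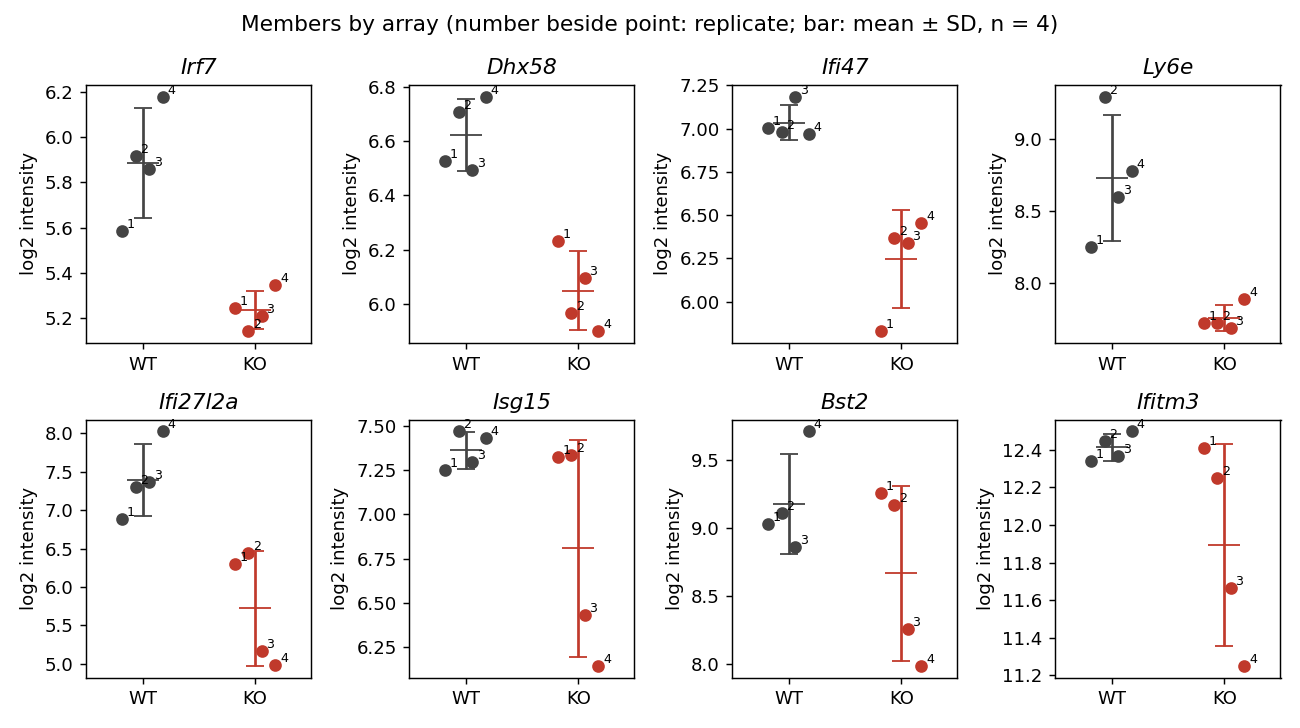
Log2 intensity on each array of the 5 called genes (Irf7, Dhx58, Ifi47, Ly6e and Ifi27l2a) and of Isg15, Bst2 and Ifitm3, with the replicate number beside each point and bars for the mean ± SD of 4 livers (each panel has its own y axis, not starting at 0). WT and KO points do not overlap in the 5 called genes, and in the other 3 genes KO 3 and KO 4 lie below the other 6 arrays.

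Of the membrane proteins and the nucleotide-pool enzymes, Ly6e was called. This GPI-anchored protein of the Ly6 family, known to restrict the entry of coronaviruses, was at 8.25, 9.29, 8.60 and 8.78 in WT and at 7.73, 7.73, 7.69 and 7.89 in KO. The KO arrays were nearly alike and the WT arrays spread over more than 1 log2 unit, without overlap. Ly6e was 1.96-fold lower in KO (-0.97 ± 0.19, adjusted p = 0.0298), and the call was lost without WT 2 (0.0614), WT 3 (0.0831), WT 4 (0.0956), KO 2 (0.0624) or KO 3 (0.0977). It was also lost without KO 1 and KO 4 together (0.0548), with no detection filter (0.0771), without background correction (0.0502) and in the authors' processed values (0.0502), and it was kept in 8 of 18 alternatives. Ifitm3, which blocks fusion of viruses in endosomes, was at 12.34, 12.44, 12.37 and 12.50 in WT and at 12.41, 12.25, 11.66 and 11.25 in KO. Bst2 (tetherin), which holds budding virions at the membrane, was at 9.03, 9.11, 8.86 and 9.71 in WT and at 9.26, 9.17, 8.26 and 7.99 in KO. In both genes KO 3 and KO 4 were low and KO 1 and KO 2 near WT, and neither was called (Ifitm3 -0.52 ± 0.22, adjusted p = 0.265; Bst2 -0.51 ± 0.29, adjusted p = 0.403). Rsad2 (viperin), which makes a chain-terminating nucleotide, was at 0.16 ± 0.17, and Samhd1, a hydrolase of deoxynucleotides, at 0.01 with a 95% interval of -0.22 to 0.25.

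Of the other interferon-stimulated genes, Ifi27l2a had the widest change of the 33. It was at 6.89, 7.30, 7.37 and 8.02 in WT and at 6.29, 6.44, 5.17 and 4.99 in KO. All KO arrays lay below the WT arrays, KO 3 and KO 4 by more than KO 1 and KO 2. Ifi27l2a was 3.19-fold lower in KO (-1.67 ± 0.35, adjusted p = 0.0356), and the call was lost without WT 2 (0.0982), WT 3 (0.11), WT 4 (0.108), KO 3 (0.115) or KO 4 (0.0601), without KO 1 and KO 4 together (0.0502) and with no detection filter (0.113). Without background correction and in the authors' processed values its log2 fold change was -0.92 (0.0547 in both), and with array weights it was -2.15. The call was kept in 8 of 18 alternatives. A probe for Ifi27l2a can also bind transcripts of its close paralog Ifi27l2b, whose own probe was not detected on any array. Parp14, a mono-ADP-ribosyltransferase, was at 8.56, 8.75, 8.43 and 8.62 in WT and at 8.39, 8.20, 8.11 and 8.31 in KO, without overlap but not called (-0.34 ± 0.11, adjusted p = 0.156). Ifi35, a partner of the protein Nmi, was at -0.08 ± 0.15, and Rtp4, a receptor transport protein, at -0.16 ± 0.12 (adjusted p = 0.506). Xaf1, a binding partner of the apoptosis inhibitor XIAP, was not detected on any array. Ifi44 had no probe with that symbol in the annotation used here.

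The genes did not move as 1 block over the livers. On the single KO arrays 20, 26, 24 and 18 of the 33 genes lay below the WT mean (KO 1 to KO 4), and on the WT arrays 19, 20, 21 and 9. The median difference from the WT mean was -0.08, -0.17, -0.18 and -0.03 on KO 1 to KO 4, and -0.06, -0.05, -0.06 and 0.07 on WT 1 to WT 4. KO 4, at the far end of the first principal component, was thus near WT by this median. Over all 528 pairs of the 33 genes the median Pearson's r across the 8 arrays was 0.108. Among Isg15, Bst2, Ifitm3 and Ifi27l2a, grouped after their values were seen, r was 0.858 to 0.987 over 8 arrays that share their normalization. All of them were low on KO 3 and KO 4, so a high r was built into the choice. These 4 genes and Rtp4 had both their lowest values on KO 3 and KO 4, without overlap with the other 6 arrays. This was so for 5 of 33 genes (15.2%), and for 13.3% of all genes tested, so the share of interferon genes with this pattern was near that of genes in general.

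Markers of liver cell types were read on the same arrays, with 0 called. Of 12 Kupffer cell and macrophage markers 8 were measured, with a median log2 fold change of -0.43 and 0 called. All 8 of 8 were below 0, as were 50.3% of all genes. In the limma fit 4 of 8 had an unadjusted p under 0.05 (C1qb, C1qa, Timd4 and C1qc), where 17.4% of all genes did. The lowest adjusted p was 0.117 (C1qb, -0.53). The median was -0.21 without WT 4 and -0.19 without background correction or in the authors' processed values, 7 of 8 were below 0 without KO 1, 1 was called lower without WT 1 and 3 were with array weights. Their summed level (log2) was 10.88 to 11.63 in WT and 10.78 to 11.20 in KO, and their median difference from the WT mean was -0.45, -0.06, 0.09 and 0.34 on WT 1 to WT 4 and -0.48, -0.37, -0.24 and -0.46 on KO 1 to KO 4. WT 1 was thus as low in these markers as the KO arrays. Irf7, Ly6e and Ifi27l2a were lowest of the WT arrays on WT 1, at 5.59, 8.25 and 6.89, though above every KO array. Ifi47 and Dhx58 were not lowest there, and the share of all genes lowest there was not counted. Over the KO arrays the markers were least low on KO 3 (-0.24), where Irf7, Ly6e and Ifi27l2a were at 5.21, 7.69 and 5.17. On KO 1 (markers -0.48) these genes were at 5.24, 7.73 and 6.29. The neutrophil markers S100a8 and S100a9, 2 measured of 7 with a probe, were lowest on KO 4 and KO 3: S100a8 was at 6.74, 6.88, 5.89 and 7.15 in WT and at 6.27, 6.36, 4.87 and 4.26 in KO. Their summed level was 6.44 to 7.66 in WT and 5.31 to 6.99 in KO, and neither was called (adjusted p of 0.194 and 0.386). The part of macrophages and neutrophils in the lower values of the interferon genes was not tested. The summed hepatocyte markers were at 15.94 to 16.09 in WT and 16.05 to 16.19 in KO, with 0 called. Those of the sinusoidal endothelium were at 11.39 to 11.45 in WT and 11.44 to 11.64 in KO, also with 0 called. In the limma fit 0 hepatocyte and 2 endothelial markers had an unadjusted p under 0.05. The latter were Lyve1 (0.96, adjusted p = 0.104) and Stab2 (-0.24, adjusted p = 0.224). Of the plasmacytoid dendritic cell markers 1 of 6 with a probe was measured (Tcf4, also expressed elsewhere), of T and NK cell markers 2 of 11, of B cell markers 1 of 5 and of cholangiocyte markers 1 of 3, with 0 called (limma; 1 gene with an unadjusted p under 0.05, a cholangiocyte marker). Siglech, Cd3e and Cd79a were detected on at most 2 arrays.

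The rest of the pathway was read from lists of genes other than the 43. Of 21 interferon ligands 17 had a probe and 2 were measured, Ifna6 (-0.16, adjusted p = 0.615) and Ifna1 (-0.01, adjusted p = 0.965), whose probes may also bind other genes of that close family. Ifnb1 and Ifng were not detected on any array. Of 16 genes of the receptors and the JAK-STAT cascade 11 were measured, 0 were called and 0 had an unadjusted p under 0.05 (limma, median 0.04); the lowest p was that of Ifngr1, the ligand-binding chain of the interferon gamma receptor, at 0.24 ± 0.11 (adjusted p = 0.29), followed by Jak1 at 0.24 ± 0.17 (adjusted p = 0.495).

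Among 22 genes of nucleic acid sensing upstream of interferon, 14 were measured. Of these 1 was lower and 0 were higher (median -0.06, all genes 1.36% lower and 1.18% higher). The 1 was Irf5, a transcription factor of macrophages and B cells that acts below Toll-like receptors. Irf5 was at 6.36, 6.52, 6.77 and 6.26 in WT and at 6.03, 5.82, 5.64 and 5.66 in KO. The groups did not overlap, and the difference was -0.69 ± 0.14 (adjusted p = 0.0336). Its call was lost without WT 2 (0.106), WT 3 (0.109), WT 4 (0.0621), KO 2 (0.0631), KO 3 (0.115) or KO 4 (0.0646), with median scaling (0.0584) and with no detection filter (0.0657), and was kept in 9 of 18 alternatives. Its log2 fold change was -0.34 without background correction and in the authors' processed values. How close Irf5 lies to the targeted exon of Snd1 was not checked here. An effect of sequence linked to the targeted allele on its value was not tested. Next came Unc93b1, the chaperone of endosomal Toll-like receptors, at -0.48 ± 0.20 (adjusted p = 0.244). Of 14 other interferon-inducible GTPases 2 were measured, Gvin1, a very large GTPase, at -0.89 ± 0.40 (adjusted p = 0.289) and Gbp2b at -0.38 ± 0.22 (adjusted p = 0.4). WT values of Gvin1 ran from 7.29 to 8.04, and those of KO 2 to KO 4 from 7.03 to 7.83, while KO 1 was at 5.53. Of 54 further interferon-stimulated genes 22 were measured, 0 were called and 5 of 22 had an unadjusted p under 0.05, where 17.4% of all genes did (median log2 fold change -0.03). The lowest p were those of Ifi27 (-0.38 ± 0.12, adjusted p = 0.122) and Parp12, another mono-ADP-ribosyltransferase (-0.43 ± 0.13, adjusted p = 0.126). In both the groups did not overlap, which was so for 10.8% of all genes tested.

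**Figure D5:**
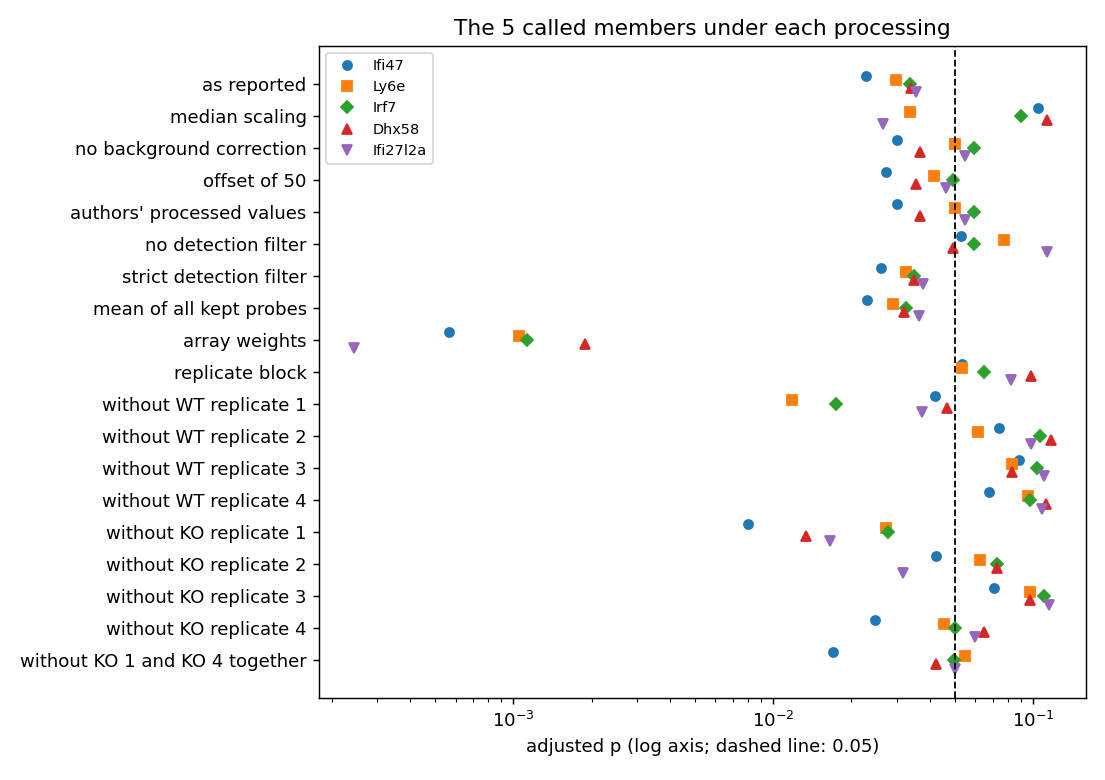
Adjusted p (x axis, log scale) of the 5 called genes in the reported processing and in each of the 18 alternatives (rows), with a dashed line at 0.05. Array weights give the lowest values, and all 5 symbols are right of the line with the replicate block and without WT 2, WT 3, WT 4 or KO 3.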

How the data were processed

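Total RNA of the left liver lobe of 8 male mice (4 WT, 4 KO) was hybridised to bead arrays of type Illumina MouseRef-8 v2.0, 1 for each animal, which the study's methods call biological replicates. The authors deposited probe intensity that was not normalized, on a linear scale, with a deposited detection p-value per probe and array, and processed intensity, which kept the rank order within each array. Normalized intensities were compared by the study in Chipster with a 2-group test. The sources used here do not name the scanner software of the liver arrays.

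In R 4.3.3 with limma 3.58.1 the intensities that were not normalized were background-corrected (normexp, controls inferred from the detection p-value, offset 16), quantile-normalized and put on the log2 scale. The offset compresses changes of dim probes, and quantile normalization hides a change common to all genes. Of 25697 probes 23978 had 1 symbol, 0 had several and 1719 had none; 23962 matched the RefSeq gene table (GRCm38.p6) by gene ID and 0 symbols changed. A probe was kept if it had a symbol and was detected at p under 0.05 on 4 or more of the 8 arrays (10945 probes), and the brightest kept probe over all arrays stood for its gene (8134 genes). KO and WT were compared with lmFit and eBayes (2-sided, no covariate), with p adjusted by Benjamini-Hochberg over all 8134 genes and calls at an adjusted p under 0.05. The 95% intervals come from the same fit. The 4 arrays per group limit the precision.

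The interferon genes, the pathway and marker lists and the rule for genes named in full (called, without overlap of the groups, or among the 10 lowest p of the interferon genes) were chosen with earlier results of these data known. Isg15, Bst2, Ifitm3, Irgm1 and Irgm2 are also given array by array, chosen after their values were seen. The array build is not named, so promoter coordinates are those of RefSeq. Alternatives were median scaling, no background correction, an offset of 50, the authors' processed values, no or a strict detection filter, the mean of all kept probes, array weights, a replicate block, each array left out and, chosen after seeing the data, both dimmest arrays left out. The authors' processed values gave nearly the same result as no background correction for every interferon gene, so the pair adds little beyond a single alternative. A slide block was not run because the headers give no slide.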

Additional observations from a re-analysis of the deposited data

Results flagged for a closer look

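Oas1g on WT 1 lay apart from its group: its log2 intensity was 6.03, where the other 3 WT arrays were between 6.38 and 6.41, a gap of 0.942 of the range of the group. Dixon's test at the 95% level was passed. It was the 1 such value in 22 groups tested, and chance gives about 1 in 20.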

How the results depend on the processing

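The number of interferon genes called (5) was 2 with median scaling (Ifi27l2a and Ly6e), 2 without background correction, 2 from the authors' processed values (Dhx58 and Ifi47 in both) and 1 with no detection filter (Dhx58, with 41 genes tested). It was 13 with array weights (12 lower, and Gbp2 higher), where 2190 of all genes were called (26.9%). With an offset of 50, the strict filter or the mean of all kept probes the same 5 genes were called. The share of all genes was 2.78%, 2.67% and 2.57% there. Among all genes 97 were called with median scaling (1.19%) and 96 with no detection filter (0.579%). The share was 2.61% without background correction and 2.61% from the authors' processed values. The number in the pathway and cell marker lists (1) was 0 with median scaling and with no detection filter, and 28 with array weights. With each array left out in turn the calls ran from 41 to 521 over all genes, from 0 to 5 over the interferon genes and from 0 to 5 over the pathway and marker lists. WT and KO share the replicate numbers 1 to 4, and the study used littermates. Deviations of same-numbered arrays from their group means correlated at 0.089, -0.088, 0.117 and -0.01. With 4 arrays per group these values cannot show whether the numbers pair the mice. With the replicate block 92 genes were called (1.13%), 0 of the interferon genes and 0 in the pathway and marker lists. Over Snd1, Rtp4 and 14 of the interferon genes described array by array (Irgm1 and Irgm2 not counted), 232 alternative values kept their side of the threshold, 46 lost a call, 9 gained one and 0 changed direction. The strict filter left Snd1 out. Signal limits the dim genes: 8 of 41 with a probe were below the filter.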
